A study of Homo sapiens with 6 samples.

Results

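The genes described here are the 4 human tropomyosin genes TPM1, TPM2, TPM3 and TPM4, the pseudogene RP1-106C24.1, which is named as a copy of TPM2 and lies inside FGF13, and FGF13 itself. They were chosen by name and are 6 of the 47032 gene symbols measured. Each corresponded to 1 entry of the deposited tables, so no entries had to be summed. The pseudogene was chosen because its count went from 5 in VCaP to 16257 in VCaP-CR, so its values, and the changes of the other members in that pair, are given as a description, with no test. Both VCaP libraries do enter the tests of line of origin and the tests of other gene lists over 3 pairs.

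The study profiled total RNA of 6 human prostate cancer cell lines by RNA sequencing, with 1 library per line. The labels call 3 of them castration sensitive (LNCaP, LAPC4, VCaP) and 3 castration resistant (LNCaP-abl, LAPC4-CR, VCaP-CR). LNCaP and LAPC4 were grown in RPMI with 10% fetal bovine serum and VCaP in DMEM with 10% fetal bovine serum. For the 3 resistant lines the medium was RPMI, its 10% serum was charcoal-stripped and B27 was added, and no line received any other treatment. Each resistant line was paired with the line whose name it carries, and where a pair is given by 2 values the sensitive parent comes first. Castration resistance and the change of medium coincide in all 3 pairs and cannot be told apart, and in the VCaP pair the basal medium differs as well. No difference within a pair has a replicate check.

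Tropomyosins are coiled-coil proteins that lie end to end along actin filaments and govern which myosins, cofilins and other partners can reach the filament. In muscle they work with troponin, whereas in epithelial cells shorter and longer isoforms, made from the 4 genes by alternative promoters and splicing, mark stress fibres, the cell cortex and other filament populations. A processed pseudogene is a copy of a messenger RNA that was reverse transcribed and inserted elsewhere in the genome, usually without introns or a promoter of its own. FGF13 belongs to the fibroblast growth factor homologous factors, which are kept inside the cell and bind voltage-gated sodium channels and microtubules.

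Library totals lay between 8661337 and 22433655 counts. Levels are given as scaled FPKM, the deposited FPKM divided by a factor per library between 0.862 and 1.08, and changes are differences of log2(scaled FPKM + 1), resistant less sensitive, a scale that understates changes of low genes. The filter on low values, a mean of 1 scaled FPKM or more, was passed by 17409 genes. Among the members, 5 passed, the pseudogene only through VCaP-CR, and TPM2 did not. The 7 luminal prostate markers summed to between 234 and 992 scaled FPKM. ERG, the gene rearranged in VCaP, had 16.6 and 5.42 scaled FPKM in the VCaP pair and no more than 0.191 elsewhere. Markers of smooth muscle, leukocytes and endothelium summed to at most 4.03, 2.56 and 1.68 scaled FPKM in any library.

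RP1-106C24.1 has the identifier ENSG00000235975, for which the current gene symbol is TPM2P1. In the deposited coordinates, for which the submitters' processing notes name hg18, it spans bases 137716202 to 137716919 of chromosome X, within FGF13 at 137541401 to 138132605. Its 718 bases are 1 block in GENCODE release 29 (GRCh38), which places it on the plus strand while FGF13 lies on the minus strand. In that annotation, 5 of the 8 FGF13 transcripts span it and 0 have an exon that overlaps it, so it is intronic to FGF13. The nearest FGF13 exon is 50421 bp away and the nearest FGF13 transcript start 67021 bp away.

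Aligned over its whole length, the pseudogene matched the TPM2 coding sequence at 549 of 718 bases, an identity of 76.5%. Its identity with the closest coding transcript of TPM4 was 67.7%, with TPM3 66.5% and with TPM1 64.2%. TPM2 was thus the closest of the 4 genes. The 4 coding genes shared between 75.9% and 78.1% of aligned bases with each other, so the pseudogene was about as far from TPM2 as the coding genes are from one another. The pseudogene opens with ATG, as TPM2 does, but in that frame a stop codon follows after 63 codons. The frame holds 9 stops in 239 codons, whereas the TPM2 reading frame runs for 284 codons.

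The alignment left 95 coding bases of TPM2 without a counterpart in the pseudogene. The longest such stretch was 82 bases, TPM2 coding bases 423 to 504, which are missing after base 417 of the pseudogene. The 2 sequences below, from the transcripts of GENCODE release 29 and written 5′ to 3′, show this stretch with the bases around it, so that the differences can be read directly. They are pseudogene bases 378 to 457 and TPM2 coding bases 383 to 552. Capitals mark bases that differ or that the other sequence lacks.
RP1-106C24.1: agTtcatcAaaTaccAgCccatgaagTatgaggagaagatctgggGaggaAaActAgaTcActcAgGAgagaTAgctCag
TPM2: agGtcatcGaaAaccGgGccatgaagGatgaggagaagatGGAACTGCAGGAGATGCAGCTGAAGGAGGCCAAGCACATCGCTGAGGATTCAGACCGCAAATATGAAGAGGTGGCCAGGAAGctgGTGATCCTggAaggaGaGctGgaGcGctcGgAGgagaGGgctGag

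Short stretches of the pseudogene were searched for in all other GENCODE transcripts, because reads shared with another gene could be counted at either. Of its 699 windows of 20 bases, 1 had an exact copy in TPM2 and 2 had one in any other transcript. Of its 694 windows of 25 bases, 0 had an exact copy in another transcript. The same held for 684 windows of 35 bases and 669 windows of 50 bases. An exact read of 25 bases or more from the annotated pseudogene therefore differs in sequence from every other annotated transcript. The sources used here do not give the read length, the mismatches allowed or the handling of reads with several matches.

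The pseudogene had few counts in 5 of the 6 libraries and was abundant in VCaP-CR. It had 2 counts in LNCaP, 2 in LNCaP-abl and 5 each in VCaP, LAPC4 and LAPC4-CR, for which exact Poisson 95% intervals ran from 0.242 to 7.22 counts (for 2) and from 1.62 to 11.7 (for 5). VCaP-CR had 16257 counts, with an interval from 16008 to 16509. Such intervals cover counting error only. Its level was between 0.242 and 0.699 scaled FPKM in the 5 low libraries and 1402 scaled FPKM in VCaP-CR.

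As a share of the library (CPM), the VCaP-CR value was 2090 times the VCaP value (exact conditional 95% interval 895 to 6438). The change of 9.69 on the log2 scale ranked 1 among the 17409 genes in that pair, a rank that chose the gene. The change was −0.06 in the LNCaP pair and −0.24 in the LAPC4 pair, both from counts of 2 to 5. The pseudogene made up 0.0905% of all counts in VCaP-CR (Wilson 95% interval 0.0891 to 0.0919). By count it ranked 88 among the 51698 entries of that library and 6 among its 11400 entries of the pseudogene class.

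As a description, with limits set on the pseudogene's own values, at most 5 counts in 1 library and at least 1000 in the other, the pseudogene was the 1 entry of 51698 that met them upwards in the VCaP pair, and 0 met them downwards. In the LNCaP pair 1 entry met them upwards and 0 downwards, and in the LAPC4 pair 0 upwards and 2 downwards. Among entries of the pseudogene class with at most 10 counts in VCaP, the next highest in VCaP-CR, also picked after its values were seen, was HK2P1, a hexokinase 2 pseudogene, with 90 counts against 9.

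**Figure D1:**
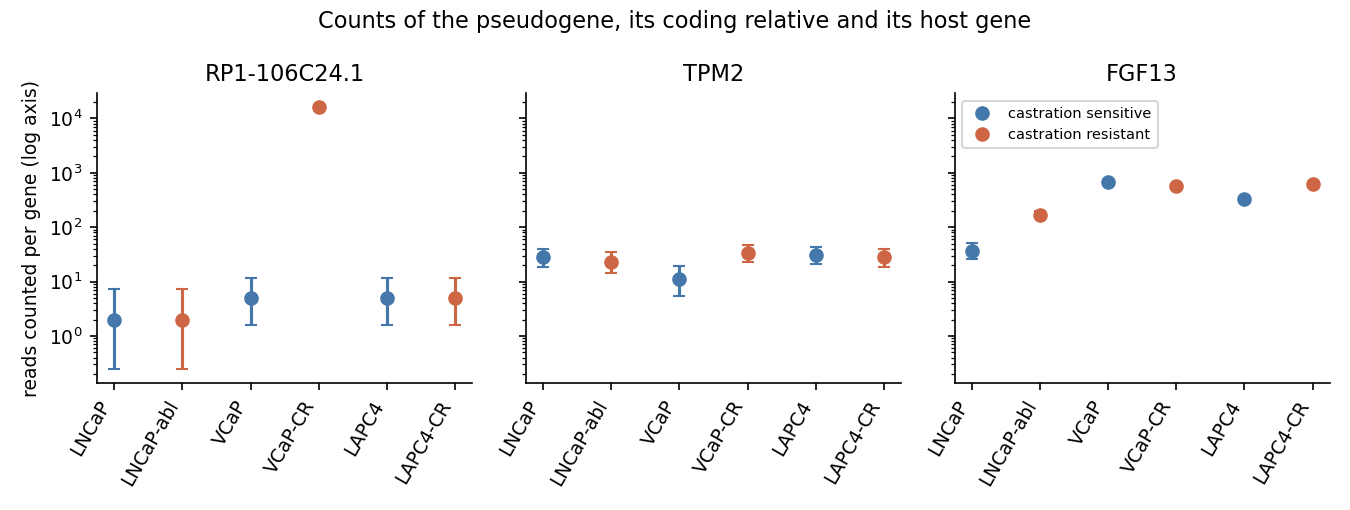
Deposited counts (log axis) of RP1-106C24.1, TPM2 and FGF13 in the 6 libraries, coloured by castration sensitive or resistant label, with bars for the exact Poisson 95% interval. RP1-106C24.1 has 2 to 5 counts in 5 libraries and 16257 in VCaP-CR, TPM2 has 11 to 33 throughout, and FGF13 runs from 37 to 674.

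TPM2, the closest relative of the pseudogene and the gene for beta-tropomyosin of muscle, was the least abundant tropomyosin gene in all 6 libraries. It had 28 and 23 counts in the LNCaP pair, 31 and 28 in the LAPC4 pair, and 11 and 33 in the VCaP pair. Its level was 0.504 ± 0.187 scaled FPKM (SD, n = 6 libraries), from 0.287 in VCaP to 0.777 in LNCaP. TPM2 was low in every library, including the one in which the pseudogene was high. In the VCaP pair the TPM2 CPM in VCaP-CR was 1.93 times that in VCaP, with a 95% interval of 0.951 to 4.23 that includes no change. In the LNCaP pair the ratio was 0.653 (0.359 to 1.18) and in the LAPC4 pair 0.499 (0.288 to 0.860).

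The share of the pseudogene in the combined counts of pseudogene and TPM2 shows where reads of this pair of sequences were counted. It was 6.67% in LNCaP (Wilson 95% interval 1.85 to 21.3), 8% in LNCaP-abl (2.22 to 25) and 31.2% in VCaP (14.2 to 55.6). In LAPC4 it was 13.9% (6.08 to 28.7) and in LAPC4-CR 15.2% (6.65 to 30.9). The intervals of these 5 libraries overlap. In VCaP-CR the share was 99.8% (99.7 to 99.9) of 16290 counts, of which 33 were TPM2. Per length, the pseudogene in VCaP-CR stood at 21.5 times the summed level of TPM1, TPM2, TPM3 and TPM4.

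TPM1, TPM3 and TPM4 supplied nearly all of the tropomyosin message. Over the 6 libraries TPM3 averaged 19.3 ± 5.29 scaled FPKM, TPM4 18.5 ± 5.57 and TPM1 18.4 ± 7.70 (SD, n = 6 libraries). On this scale, which divides by the deposited gene length, these 3 genes did not differ beyond their spread. TPM2, at 0.504 ± 0.187, was below the lowest value of each of them, 8.4, 9.0 and 13.6 scaled FPKM for TPM1, TPM4 and TPM3. The summed level of the 4 genes was 50.8 and 50.1 scaled FPKM in the LNCaP pair, 58.8 and 50.6 in the LAPC4 pair, and 64.8 and 65.3 in the VCaP pair. The resistant to sensitive ratio of these sums was 0.986, 0.860 and 1.01, respectively. Within the LNCaP and LAPC4 pairs the shares of single genes moved further than the sum.

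In LNCaP, TPM4 made up 43.0% of the summed FPKM and TPM3 30.7%, whereas in LNCaP-abl TPM4 made up 18.0% and TPM3 46.5%. In LAPC4 the shares of TPM1, TPM3 and TPM4 were 30%, 35.3% and 33.7%, and in LAPC4-CR 16.6%, 53.4% and 29.4%. In both of these pairs TPM3 took the largest share in the resistant line. In VCaP the 3 shares were 40.6%, 23.5% and 35.4%, and in VCaP-CR 43.4%, 20.9% and 34.9%, so TPM1 led in both. Shares between genes rest on the deposited lengths, 3854 bases for TPM1, 8363 for TPM3 and 3003 for TPM4. By count TPM3 was above TPM1 in VCaP (1270 against 1010) and in VCaP-CR (1841 against 1764). TPM2 held between 0.443% and 1.53% throughout.

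**Figure D2:**
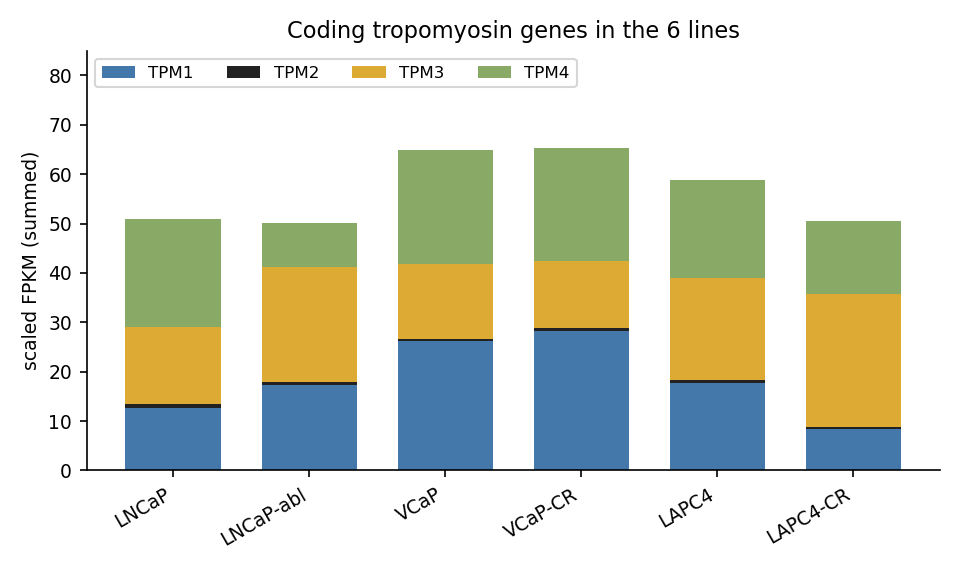
Scaled FPKM of TPM1, TPM2, TPM3 and TPM4 stacked in 1 bar per library. The bars reach 50.1 to 65.3, TPM3 is the largest block in LNCaP-abl and LAPC4-CR, the VCaP and VCaP-CR bars are nearly alike, and TPM2 is a thin line.

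TPM1 encodes the alpha-tropomyosin of striated and smooth muscle and, in other cells, isoforms found on stress fibres. Its counts were 456 and 767 in the LNCaP pair, 903 and 784 in the LAPC4 pair, and 1010 and 1764 in the VCaP pair. In scaled FPKM these were 12.6 and 17.3, 17.7 and 8.4, and 26.3 and 28.3. Both libraries of the VCaP line were above the other 4, and LAPC4-CR was lowest. The change was 0.43 in the LNCaP pair, −0.99 in the LAPC4 pair and 0.10 in the VCaP pair, the LAPC4 value lying just short of the 2-fold limit. The CPM in LAPC4-CR was 0.480 times that in LAPC4 (95% interval 0.435 to 0.528), and 6.96% of the 17409 genes had a lower change in that pair.

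TPM3 encodes cytoskeletal isoforms made in most cell types and the tropomyosin of slow muscle fibres. Its counts were 1224 and 2242 in the LNCaP pair, 2302 and 5469 in the LAPC4 pair, and 1270 and 1841 in the VCaP pair. Its levels in the same order were 15.6 and 23.3, 20.7 and 27.0, and 15.2 and 13.6 scaled FPKM. The 2 libraries of the VCaP line were the lowest, though VCaP lay close to LNCaP. The change was 0.55 in the LNCaP pair, 0.37 in the LAPC4 pair and −0.15 in the VCaP pair. In the LNCaP and VCaP pairs the CPM ratios were 1.46 (1.36 to 1.56) and 0.932 (0.867 to 1.00), and in the LAPC4 pair 1.31 (1.25 to 1.38).

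TPM4 encodes short isoforms of the non-muscle cytoskeleton. Its counts were 615 and 311 in the LNCaP pair, 790 and 1079 in the LAPC4 pair, and 687 and 1107 in the VCaP pair. These were 21.8 and 9.0, 19.8 and 14.8, and 23.0 and 22.8 scaled FPKM, with LNCaP-abl lowest and the other 5 within 14.8 to 23.0. The change was −1.19 in the LNCaP pair, −0.39 in the LAPC4 pair and −0.01 in the VCaP pair. The CPM ratio of the LNCaP pair was 0.402 (0.350 to 0.462), and 5.26% of the 17409 genes had a lower change there.

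FGF13, the host gene on chromosome X, did not rise with the pseudogene inside it. It had 37 and 170 counts in the LNCaP pair, 325 and 635 in the LAPC4 pair, and 674 and 572 in the VCaP pair. Its level was 1.05 and 3.92, 6.50 and 6.96, and 18.0 and 9.40 scaled FPKM in that order, highest in VCaP and lowest in LNCaP. The change was −0.87 in the VCaP pair, in which the pseudogene changed by 9.69, and the FGF13 CPM in VCaP-CR was 0.546 times that in VCaP (0.487 to 0.611). In the LNCaP pair the change was 1.27, with a ratio of 3.65 (2.55 to 5.37), and in the LAPC4 pair 0.09, with a ratio of 1.08 (0.943 to 1.24). Among all genes, 96.1% had a lower change than FGF13 in the LNCaP pair and 3.4% in the VCaP pair.

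At the 2-fold limit, 1 member was higher (FGF13) and 1 lower (TPM4) in the LNCaP pair, where 6.72% of the 17409 genes were higher and 7.85% lower. In the VCaP pair, which chose the members, 1 was higher (RP1-106C24.1) and 0 were lower, where 2.57% of genes were higher and 2.38% lower. In the LAPC4 pair 0 were higher and 0 lower, where 5.77% of genes were higher and 6.82% lower. The mean change over the 3 pairs was smaller in size than its SD for every member. It was −0.15 ± 0.74 for TPM1, −0.09 ± 0.30 for TPM2, 0.25 ± 0.36 for TPM3, −0.53 ± 0.60 for TPM4 and 0.16 ± 1.07 for FGF13 (SD, n = 3 pairs). For the pseudogene it was 3.13 ± 5.68, set by the VCaP pair. TPM4 was lower in the resistant line of the LNCaP and LAPC4 pairs. In the VCaP pair its change was −0.01 on this scale, but its CPM ratio was 1.04 (95% interval 0.941 to 1.14). Its sign in the VCaP pair therefore depends on the scaling.

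**Figure D3:**
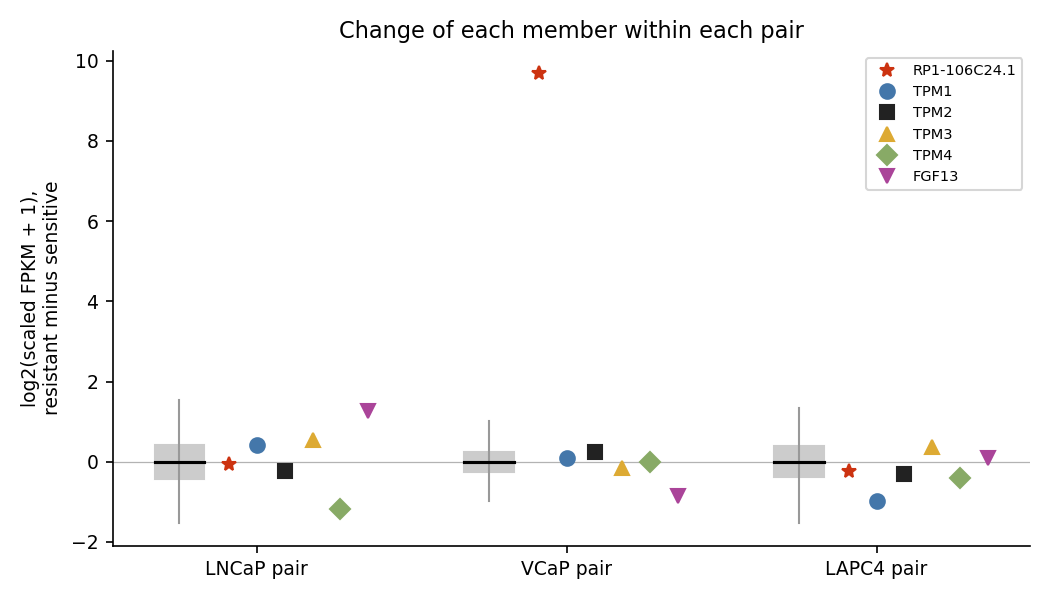
Change of each member in the 3 pairs, as resistant minus sensitive library on the log2(scaled FPKM + 1) scale, with 1 marker per member; beside them a grey box spans the quartiles of all 17409 genes, a black line marks their median and a grey line the central 95%. The pseudogene stands at 9.69 in the VCaP pair, and every other marker lies between −1.19 and 1.27.

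TPM1, TPM3, TPM4 and FGF13 were tested in the LNCaP and LAPC4 pairs alone, since the VCaP pair had chosen the members. RP1-106C24.1 was given no test, and TPM2 did not pass the filter on low values. None of the 4 tested members passed in edgeR's quasi-likelihood test with the line as a block. Of all 17409 genes, 0.0172% were called higher and 0.0345% lower, that is 3 and 6 genes. The fitted log2 fold change was −0.31 (SE 0.49, adjusted p = 0.922) for TPM1 and 0.48 (SE 0.39, adjusted p = 0.822) for TPM3. It was −0.85 (SE 0.43, adjusted p = 0.688) for TPM4. For FGF13 it was 0.96 (SE 0.57, adjusted p = 0.738). At an unadjusted p under 5%, 0 of the 4 passed, where 3.62% of genes were higher and 4.18% lower. DESeq2 called 0 of the 4 too, where it called 0.646% of its genes higher and 0.782% lower. Over 5 alternatives, DESeq2 and limma among them, the adjusted p was 0.911 to 1.00 for TPM1, 0.763 to 1.00 for TPM3, 0.605 to 0.996 for TPM4 and 0.718 to 0.996 for FGF13. With 2 pairs the test has little reach. On simulated counts with these library sizes it found 61% of genes changed 4-fold and 100% of those changed 16-fold, with 9 false calls. The simulation gave all genes the same dispersion of 0.12, changed only well-counted genes and changed both pairs alike. It drew each gene from 1 mean for both lines. The reach on the real counts may therefore be lower.

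The line of origin was compared over both libraries of each line. FGF13 was at 2.48 ± 2.03 scaled FPKM in the LNCaP line, 13.7 ± 6.06 in the VCaP line and 6.73 ± 0.328 in the LAPC4 line (SD, n = 2 libraries). Its 2 LNCaP libraries were below the other 4, as in 9.04% of all genes, and its 2 VCaP libraries were above the other 4, as in 17.1%. The fitted differences from LNCaP were 2.59 for VCaP and 1.53 for LAPC4 on the log2 scale. The edgeR test of line did not call FGF13 (adjusted p = 0.0897), where 12% of all genes were called. Over 11 alternatives the adjusted p ran from 0.00364 to 0.182 and was under 5% in 5 of them, among them DESeq2 (0.00895).

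TPM1 stood at 15.0 ± 3.31 scaled FPKM in the LNCaP line, 27.3 ± 1.43 in the VCaP line and 13.0 ± 6.54 in the LAPC4 line (SD, n = 2 libraries). Its VCaP line libraries were both above the other 4 and those of TPM3 both below them, as in 17.1% and 18.7% of all genes. Neither was called by the edgeR test of line, with an adjusted p of 0.184 for TPM1 and 0.308 for TPM3. TPM1 passed in 1 of 11 alternatives, without LAPC4 (adjusted p = 0.0127). TPM3 was at 19.5 ± 5.44, 14.4 ± 1.15 and 23.9 ± 4.44 scaled FPKM in the LNCaP, VCaP and LAPC4 lines. TPM4 was at 15.4 ± 9.07, 22.9 ± 0.106 and 17.3 ± 3.52 scaled FPKM in the 3 lines (edgeR adjusted p = 0.394).

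The entries around the pseudogene were read for a change that runs along chromosome X. Of 25 entries within 1 Mb of FGF13, 11 had at least 10 counts in some library. Their changes in the VCaP pair ran from −0.61 to 1.19 with a median of 0.13, and 1 of the 11 was at least 2-fold higher. The lowest of the 11 was RP1-260J9.2, by its identifier the antisense RNA FGF13-AS1, with 7 and 1 counts in the VCaP pair.

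Other pseudogenes of the tropomyosin family were looked up by identifier. Of 13 named in the gene name table, 11 were found, RP1-106C24.1 among them. Of the 10 others, 0 were at least 2-fold higher in VCaP-CR than in VCaP, and the highest change was 0.47; with 2.57% of all genes at least 2-fold higher in that pair, this count is near the background. The highest was TPM3P9, the most abundant of them, with 378 and 869 counts in the VCaP pair, 117 and 122 in the LNCaP pair, and 194 and 342 in the LAPC4 pair. TPM3P6, like TPM3P9 named after its values were seen, had 49 and 110 counts in the VCaP pair, a change of 0.42.

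**Figure D4:**
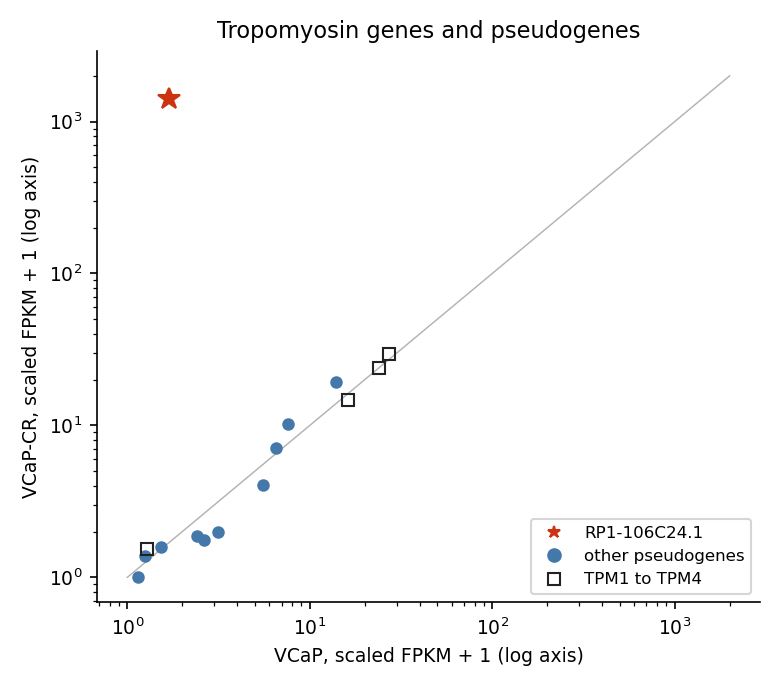
Scaled FPKM + 1 in VCaP-CR against VCaP (both log axes) for RP1-106C24.1 (star), the 10 other tropomyosin pseudogenes (filled circles) and TPM1 to TPM4 (open squares), with a line of equal values. RP1-106C24.1 alone lies far above the line, at 1402 scaled FPKM in VCaP-CR against 0.699 in VCaP.

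Genes that work with tropomyosin on the actin filament were taken from 7 lists by function, with an eighth list for sodium channel subunits and the relatives of FGF13. All 80 genes were found and 45 passed the filter on low values. In the edgeR test over 3 pairs 0 of the 45 rose and 0 fell, and 0% of all 17409 genes were called in either direction. At an unadjusted p under 5%, 7 were higher and 0 lower, against 4.96% and 3.97% of all genes. DESeq2 called 2 higher and 0 lower, against 0.714% and 0.492% of the genes it tested. In the VCaP pair 0 of the 45 were at least 2-fold higher and 1 was lower, CNN3, an actin-binding calponin, at −1.03, beside 2.57% and 2.38% of all genes, so these counts are near the background.

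Beta-actin (ACTB) and gamma-actin (ACTG1), the filament proteins of non-muscle cells, were the most abundant of the listed actins. ACTG1 stood at 236 and 455 scaled FPKM in the LNCaP pair, 544 and 257 in the LAPC4 pair, and 346 and 403 in the VCaP pair. Its changes of 0.95 for LNCaP, 0.22 for VCaP and −1.08 for LAPC4 had the same signs as those of TPM1, 0.43, 0.10 and −0.99. ACTB changed by 0.93, 0.19 and −0.08 in that order and ACTA1 by 0.34, 0.84 and −0.72, so all 3 tested actins had these signs. The signs were compared after the values were seen, and their share among all genes was not counted. The median change of the 3 tested actins was 0.93, 0.22 and −0.72, beside medians of all tested genes of −0.01, −0.01 and 0.00.

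Among the tropomodulins, which cap the slow-growing end of tropomyosin-coated filaments, TMOD3 and TMOD2 were tested. TMOD3 had an unadjusted p of 0.0319 in edgeR (adjusted p = 0.536) and changed by 0.48 in the VCaP pair, and TMOD2 by 0.84. The 11 tested genes for actin binding and bundling had median changes of 0.10, 0.01 and 0.22 in the order LNCaP, VCaP, LAPC4. Fascin (FSCN1), which bundles parallel filaments, stood at 11.4 scaled FPKM in LAPC4 and 1.33 in LAPC4-CR, and changed by −0.35 in the VCaP pair.

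The 14 tested genes of filament turnover had median changes of 0.23, 0.28 and 0.21 in the order LNCaP, VCaP, LAPC4. The 10 tested genes of the myosin list had medians of 0.65, 0.15 and 0.34. ROCK2, a kinase that raises myosin activity, was 1 of the 2 genes DESeq2 called, with an adjusted p of 0.00254, and changed by 1.29, 0.91 and 1.15. Its adjusted p in edgeR was 0.526. MYH9, the heavy chain of non-muscle myosin IIA, was higher in all 3 resistant lines, at 33.9 against 19.2, 12.7 against 8.37 and 27.0 against 10.0 scaled FPKM (edgeR unadjusted p = 0.0103, adjusted p = 0.526). The other gene called by DESeq2 was FGF12, a fibroblast growth factor homologous factor like FGF13, with an adjusted p of 0.0293. In edgeR the adjusted p of FGF12 was 0.526. FGF12 had 19 and 67 counts in the LNCaP pair, 21 and 79 in the VCaP pair, and 20 and 527 in the LAPC4 pair, where FGF13 had 325 and 635.

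The troponins were low, and 1 of the 8 passed the filter, TNNT1 of slow skeletal muscle. It had 3 and 3 counts in the LNCaP pair, 16 and 597 in the LAPC4 pair, and 30 and 27 in the VCaP pair. The 4 skeletal muscle markers, TNNT1 among them, summed to 24.9 scaled FPKM in LAPC4-CR and to between 3.53 and 7.18 elsewhere. TNNT1 alone made up 22.3 of the 24.9. Among the other markers, ACTA1 went from 4.33 in LAPC4 to 2.24 in LAPC4-CR and MYH2 from 0.286 to 0.169. CKM went from 0.137 to 0.200. By line of origin, 10 of the 45 list genes were called by edgeR, where 12% of all genes were called, and 5 of the 10 were actin-binding genes. Among these TAGLN2, a transgelin, stood at 351 and 346 scaled FPKM in LAPC4 and LAPC4-CR and at 5.23 to 32.3 in the other 4 libraries.

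In VCaP-CR 1 of the 5 fibroblast markers was high beside the pseudogene. LUM, the matrix proteoglycan lumican, had 2420 counts there, 116 in VCaP and between 7 and 80 in the other 4 libraries. The other 4 fibroblast markers, COL1A1, COL1A2, COL3A1 and DCN, summed to 1.34 scaled FPKM in VCaP-CR, 1.13 in VCaP and between 1.39 and 2.42 elsewhere, and none was at 0. In bulk RNA, fewer cells of a type and less RNA per cell cannot be told apart. The part of LUM-expressing cells in the pseudogene's level was not tested.

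The 5 tested genes whose log2(scaled FPKM + 1) over the 6 libraries was most like that of the pseudogene had Pearson r between 0.992 and 0.999, values set by VCaP-CR alone. The closest was PI15, which encodes a secreted peptidase inhibitor, with 4586 counts in VCaP-CR and 15 to 48 in the others. Next was GPR149, an orphan receptor gene, with 246 counts against 3 to 14. The others were RP11-246K15.1, AC005586.1 and RP11-758M4.1. For FGF13 the 5 closest had r between 0.972 and 0.989 and included ERCC8, COX16 and FBXO42. For TPM1 they were DHRS3, TLN2 (a talin that links integrins to actin), RP11-393B14.1, PFDN5 and EEF1A1P6, with r between 0.984 and 0.991. For TPM2, a gene of 11 to 33 counts, CDKN1B was among the 5, with r = 0.983. These are descriptions over 6 libraries that share a line in pairs.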

How the data were processed

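RNA of 6 prostate cancer cell lines was measured, 1 library per line; per the labels' protocols RNeasy columns and the SOLiD Total RNA-Seq kit were used. The submitters' processing notes name HTSeq and hg18, and the sources used here do not give the aligner, annotation, strand setting or read length. Per the file headers, each deposited table holds a count and an FPKM per gene. The deposited FPKM was rebuilt within 1% as count over length and total for 100% of values above 0 in 5 libraries and 99.9978% in LAPC4-CR, whose table has no length column, so lengths from the other tables were used. FPKM divides by the library total, so a few abundant RNAs lower all other values.

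The members and gene lists were chosen with earlier results of these data known. Members, neighbours within 1 Mb, listed genes by level or by change in the VCaP pair, and the 5 genes of most similar pattern were named by rule, and genes picked after their values were seen are marked as such. Entries sharing a symbol were summed. Symbols of small RNAs (1403) were left out. Scaling factors were medians of each gene's ratio to its own geometric mean, taken over the 12501 genes that reached 1 FPKM in each library. The 17409 genes whose mean scaled FPKM reached 1 were tested on counts with edgeR 4.0.16 (R 4.3.3, quasi-likelihood, TMM, Benjamini-Hochberg adjustment over all of them, limit 5%). DESeq2 1.42.0 and limma 3.58.1 were alternatives. In tests of state the line was a block, because each resistant line derives its name from its parent. Deviations from group means correlated across genes at 0.449, 0.703 and 0.566 within the LNCaP, VCaP and LAPC4 pairs and at −0.453 to −0.0575 between lines. Because each group was centred on its own mean, positive values within pairs push those between lines to negative values. Replicate numbers 1, 2 and 3 stand for these pairs. Nothing in the labels names separate cultures. In tests of state, p-values measure how far the change differs between pairs, for the members between the LNCaP and LAPC4 pairs alone. In the test of line they measure the spread between both libraries of a line, beyond the mean change of state. On counts simulated for 17409 genes, the 3-pair test found 90% of 4-fold changes and the test of line 73%, with 6 and 7 false calls, respectively. Where nothing was changed there were 0 calls. Each gene was drawn from 1 mean for all lines, so line differences other than those put in were absent. The numbers of false calls may therefore not hold for the real counts. These simulations gave all genes a dispersion of 0.12 and changed only well-counted genes, by the same factor in each changed library. The reach on the real counts may therefore be lower. Sequences came from GENCODE release 29 (GRCh38) by gene identifier, and no coordinates were converted between builds. The design assumed a pseudogene nearly identical to TPM2, which the alignment did not bear out. Some results are not reported here.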

Additional observations from a re-analysis of the deposited data

Results flagged for a closer look

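The signs of the change differed between pairs for 2 members. TPM1 changed by 0.43 in the LNCaP pair and by −0.99 in the LAPC4 pair, a difference of 1.41 on the log2(scaled FPKM + 1) scale. Its change of 0.10 in the VCaP pair lay 1.09 above that of the LAPC4 pair. FGF13 changed by 1.27 in the LNCaP pair and by −0.87 in the VCaP pair, a difference of 2.13. With 1 library per line, none of these differences was tested.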

How the results depend on the processing

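Of 90 recomputed member changes, 81 moved by no more than the reach of the change's own 95% counting interval and 9 by more, and no change past 2-fold changed sign. The counts of members past 2-fold were kept in 25 of 30 recomputations. With a pseudocount of 0.25, and with CPM on TMM factors, 1 member (TPM1) was lower in the LAPC4 pair instead of 0. With a pseudocount of 5, 0 members were higher and 0 lower in the LNCaP pair instead of 1 and 1. With named pseudogenes added to their coding genes, an alternative chosen after seeing the data, 2 members were higher in the VCaP pair instead of 1, the second being TPM2 at 9.46, and TPM3 went from −0.15 to 0.07. As a share of FPKM rather than of counts, the pseudogene made up 27.7% and 31.8% of pseudogene plus TPM2 in the LNCaP pair, 46.3% and 48.9% in the LAPC4 pair, and 70.9% and 99.96% in the VCaP pair, because the pseudogene is shorter.

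In the LNCaP and LAPC4 pairs, 3 genes were higher and 6 lower in edgeR. These became 8 and 14 with DESeq2 size factors, 91 and 106 without the filter, 95 and 115 in DESeq2, 1 and 1 in limma, and 0 and 0 with no replicate block. TPM1, TPM3, TPM4 and FGF13 were called in none of these. Leaving out 1 of the 2 pairs leaves a change with no test: 0.45 or −1.08 for TPM1, −1.29 or −0.42 for TPM4 and 1.90 or 0.09 for FGF13 (LNCaP or LAPC4 pair).

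Over 3 pairs 0 genes were higher and 0 lower in edgeR, at an unadjusted p under 5% 864 and 692. The counts were 65 and 50 without the filter (2 list genes higher), 93 and 64 in DESeq2 (2 list genes higher), and 0 and 0 with no replicate block. Without 1 of the pairs, 0 to 47 were higher and 1 to 33 lower, the most without the LAPC4 pair. The line of origin was called for 2092 genes, for 4761 without the filter, for 3969 in the DESeq2 likelihood ratio test and for 822 to 3714 without 1 library, the fewest without VCaP-CR and the most without LAPC4. The member calls by line were the same in 38 of 44 recomputations. FGF13 passed without the filter (0.00572), in DESeq2 (0.00895), and without LNCaP-abl (0.00944), LAPC4 (0.00370) or LAPC4-CR (0.00364), and TPM1 without LAPC4 (0.0127). The cause of these changes was not tested. Depth limits TPM2 and the pseudogene most, since counts of 2 to 33 leave wide intervals.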
